A study of Mus musculus with 4 samples.

Results

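Transcripts of carbonic anhydrases were measured in embryonic day 15 kidneys of C57BL/6 mice, from dams fed either an iron-sufficient chow (220 ppm iron, the controls) or an iron-poor one (2 to 6 ppm). The genes were chosen by symbol, as the Car2, Car3, Car4, Car5b, Car8, Car9, Car12, Car13, Car14 and Car15 entries in the annotation of the Affymetrix mouse genome array. These 10 genes, of 18194 with a probe set of a single symbol, are represented by 21 probe sets. A probe set is a group of short probes that are read together as 1 signal. The dams were 8-week-old females when divided between the diets, were fed them for 3 weeks before gestation and stayed on them through breeding and pregnancy, and were mated with males of the same strain. Each diet is represented by 2 pools of 16 kidneys with 1 array per pool, and the labels name no genetic modification in either group. The labels do not say which litters entered a pool, and the pooled kidneys cannot be separated by embryo. The choice of symbols was made with the signals of these pools in view, so the values of the members are described here without a test of their difference between diets.

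Carbonic anhydrases are zinc enzymes that convert carbon dioxide and water to bicarbonate and a proton, and back. In the kidney they let tubule cells reclaim filtered bicarbonate and secrete acid, with soluble forms in the cytosol, forms on the cell surface and forms in mitochondria. Some family members have lost the catalytic site and act through binding other proteins. The surface enzyme Car9 is a textbook transcript of low oxygen, which is switched on by hypoxia-inducible factors through short sites that contain the letters ACGTG or GCGTG.

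Most carbonic anhydrases gave lower signals in the iron-deficient pools, whereas Car9 was the member with the clearest difference in the other direction. The mean Car9 signal was 17.05 under the control diet and 61.9 under iron deficiency. The opposite extreme was Car15, which averaged 204.75 and 45.7, followed by Car12, at 238.25 and 97.75. With the brightest tested probe set of each gene, 7 of the 10 genes had both iron-deficient signals below both control signals, 2 (Car9 and Car14) had both above, and Car3 overlapped; among the 7, Car13 was separated by a narrow margin. Over all genes tested in the same way, 26.0% were lower and 13.1% higher by this criterion, and the choice of members means that nothing is read from the difference. The median log2 difference, iron-deficient minus control, was -0.53 over the 10 members and -0.14 over 12997 genes.

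Signals are linear array intensities in arbitrary units. A background was set on each array at the highest of 27 control probe sets for bacterial transcripts that were not added to the samples. It was 8.5 and 8.2 on the control arrays and 14.4 and 13.3 on those of the iron-deficient pools. Of the 21 probe sets, 14 were bright enough to enter the fit across 27022 probe sets, and they covered every member. Of these 14, both iron-deficient signals were below both controls in 9 (25.0% of all tested probe sets), above both in 2 (11.8% of all tested), and overlapped in 3. Over all tested probe sets limma, a linear model with a spread shared across genes, called 0% between diets at an adjusted p of 0.05 (smallest adjusted p = 0.289). Without adjustment, 309 higher (1.14%) and 760 lower (2.81%) probe sets had a limma p under 0.05, or 581 and 479 when each array was centred on its median, a step that moved the median difference of all tested probe sets from -0.10 to 0.09. Iron-deficient pool 1 was set apart from the rest, with correlations of 0.883 to 0.913 with the other arrays across tested probe sets and an 18S ribosomal RNA signal of 2144.5 at its 5′ probe set, against 243 to 291.9 elsewhere. The 3′ to 5′ signal ratio of the actin control, a sign of RNA integrity, was 1.384 and 1.401 in controls and 1.644 and 1.489 under iron deficiency. The same ratio of the Gapdh control overlapped between diets, at 1.282 and 1.356 in controls and 1.433 and 1.263 under iron deficiency. The part of RNA integrity in the results was not tested. Differences are therefore also given for each iron-deficient pool against the control mean, and the value for pool 2 is the value without pool 1. All values come from whole kidneys, in which fewer cells of a type and less RNA per cell cannot be told apart. Precision is limited by having 2 arrays for each diet, and standard errors (SE) and p-values reflect only how far these pools lie apart, a spread that may be technical. In limma this spread is drawn more from all tested probe sets than from the probe set itself (3.49 prior against 2 residual degrees of freedom). An SE therefore does not describe the pools of its own probe set alone.

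**Figure D1:**
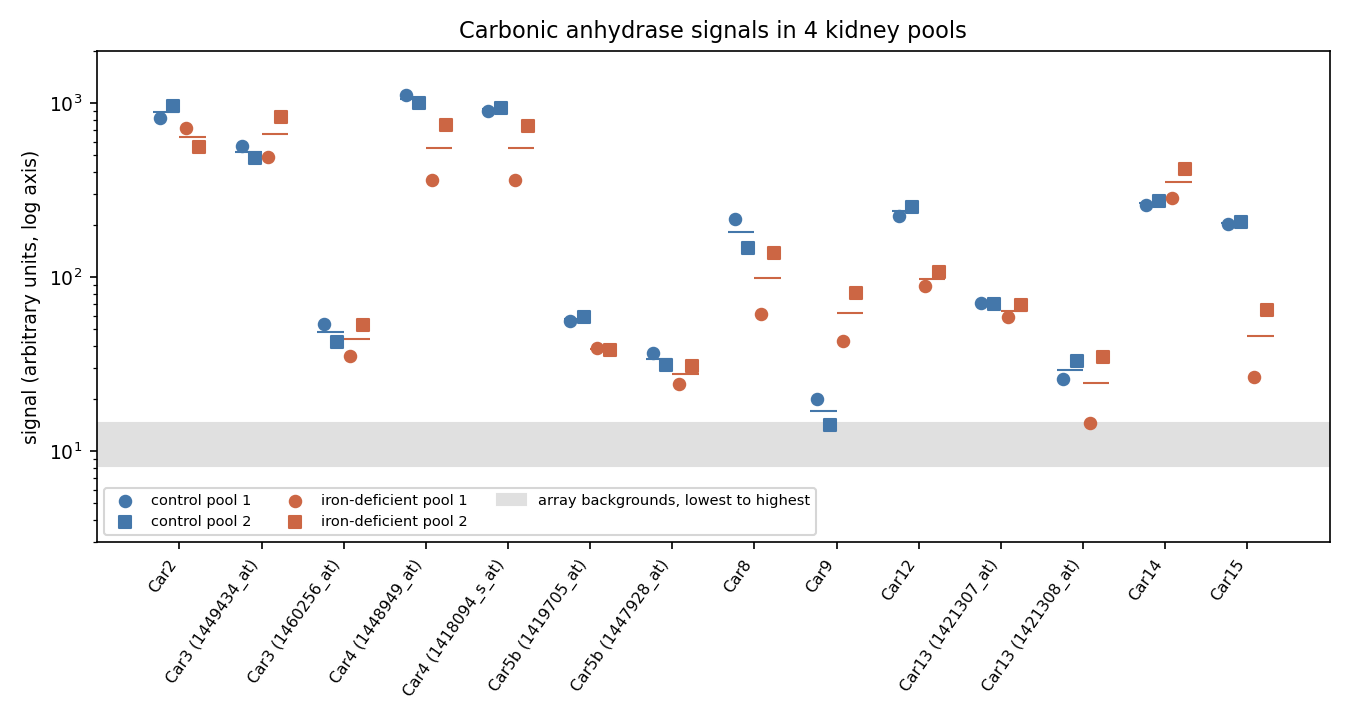
Signal of each of the 14 tested carbonic anhydrase probe sets in the 4 kidney pools, in arbitrary units on a log axis, with short lines at the mean of each diet and a grey band from the lowest to the highest array background. Car9 lies just above background in the control pools and higher in both iron-deficient pools, while Car15 goes from 201.8 and 207.7 in control pools to 26.8 and 64.6 in iron-deficient pools.

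Among the enzymes anchored by a membrane-spanning segment, Car9 and Car14 had higher and Car12 lower signals in the iron-deficient pools. Car9 faces the outside of the cell and is known from oxygen-poor tumours. Its probe set read 20 and 14.1 in controls against 42.8 and 81 under iron deficiency. Both iron-deficient pools were above both controls, and pool 2 was the highest. The log2 difference was 1.81 ± 0.44 (SE), a ratio of 3.51, with 1.35 in iron-deficient pool 1 and 2.27 in pool 2. All 4 signals were above background, but the control mean was under the limit of 17.3 for testing, so that Car9 entered the fit through its higher group, and the size depended on how low signals were treated. With an offset of 16 added before the logarithm, the log2 difference was 1.20.

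Car12 is a surface enzyme of epithelia that also belongs to the known transcripts of low oxygen in tumour cells. Its main probe set read 223.9 and 252.6 in controls against 89 and 106.5 under iron deficiency. The diets did not overlap, and the pools within each diet lay close together, with an iron-deficient pair that differed 1.20-fold. On the log2 scale the difference was -1.29 ± 0.32 (SE), or 40.9% of the control level, and it was -1.42 in iron-deficient pool 1 and -1.16 in pool 2. Of the other Car12 probe sets, the dimmest was below background in all pools, and one with signals between 9.4 and 15.3 was above background in the control pools only, so neither gives a fold.

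Car14, a surface enzyme of proximal tubule and loop segments, gave 259.2 and 275.3 in controls against 286 and 420.4 under iron deficiency. Both iron-deficient pools were above both controls, pool 1 by little. This gave a log2 difference of 0.38 ± 0.35 (SE), with 0.10 in iron-deficient pool 1 and 0.65 in pool 2. Its size is thus close to its standard error, and most of it came from pool 2.

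Promoter sequences are shown for the member with the highest difference, Car9, and for those with the lowest, Car12 and Car15. They cover the 250 bases before a RefSeq transcript start (build GRCm38.p6), 5′ to 3′ on the strand of the gene, with capitals at each match to ACGTG or GCGTG on either strand.
Car9, chr4:43506776-43507025, plus strand: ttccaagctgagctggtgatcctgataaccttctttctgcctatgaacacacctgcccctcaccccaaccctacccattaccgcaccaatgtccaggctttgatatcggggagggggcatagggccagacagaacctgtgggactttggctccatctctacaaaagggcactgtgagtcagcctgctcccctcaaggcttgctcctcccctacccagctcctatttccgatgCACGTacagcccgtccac
Car12, chr9:66713436-66713685, plus strand: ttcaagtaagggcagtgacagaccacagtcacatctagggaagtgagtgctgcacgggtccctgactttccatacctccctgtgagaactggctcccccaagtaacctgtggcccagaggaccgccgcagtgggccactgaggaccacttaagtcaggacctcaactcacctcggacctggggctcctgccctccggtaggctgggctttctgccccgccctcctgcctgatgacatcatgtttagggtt
Car15, chr16:17838187-17838436, minus strand: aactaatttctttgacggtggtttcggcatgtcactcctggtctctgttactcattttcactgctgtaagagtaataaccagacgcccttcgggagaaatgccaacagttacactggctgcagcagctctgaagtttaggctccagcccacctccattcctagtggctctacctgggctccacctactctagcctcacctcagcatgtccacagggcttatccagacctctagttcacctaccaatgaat

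The Car9 window holds 1 match to ACGTG, read on the strand opposite to the gene (CACGT as printed), from 18 to 14 bases before the transcript start. The windows of Car12 and Car15 hold no match to either motif in these letters. The RefSeq table had a window for 6 of the 10 members, and of the other 3, Car14 has 1 match to ACGTG on the opposite strand from 7 to 3 bases before its start, Car5b has 5 matches to GCGTG and none to ACGTG, and Car4 has none. Among 32851 windows of the same length in the table, 16.6% hold ACGTG on either strand and 28.2% hold GCGTG. Either motif or both are held by 38.6%, so that a match is common. The starts used for Car12 and Car14 lie 1390 and 432 bases inside the edge of the annotated gene, and other starts of these genes were not analysed here. Car2, Car3, Car8 and Car13 had no window, and the Car14 difference is close to its standard error. The matches are a description of 6 windows and not of binding, and their relation to the direction of the signals was not tested.

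The members held to the cell surface by a lipid anchor, Car4 and Car15, were both lower in the iron-deficient pools. Car4 sits on the luminal membrane of the proximal tubule, where it serves bicarbonate reclaim. Its brightest probe set read 1113.2 and 1003.5 in controls against 361.7 and 746.3 under iron deficiency. No iron-deficient pool reached the control range, and pool 1 was 2.06-fold below pool 2. The log2 difference was -1.02 ± 0.44 (SE), with -1.55 in iron-deficient pool 1 and -0.50 in pool 2. The other Car4 probe set gave nearly the same picture, with 901.9 and 939.1 against 363.6 and 741.1 and a log2 difference of -0.83 ± 0.44 (SE).

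Car15 is active in mice and other mammals but is a pseudogene in humans, and its transcript is known from the kidney. It read 201.8 and 207.7 in controls against 26.8 and 64.6 under iron deficiency. The control pools were nearly alike, and both iron-deficient pools were far below them, with a 2.41-fold gap between them. The signals gave a log2 difference of -2.30 ± 0.49 (SE), which is 20.3% of the control level, and it was -2.93 in iron-deficient pool 1 and -1.66 in pool 2. This was the largest difference in size among the tested member probe sets.

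**Figure D2:**
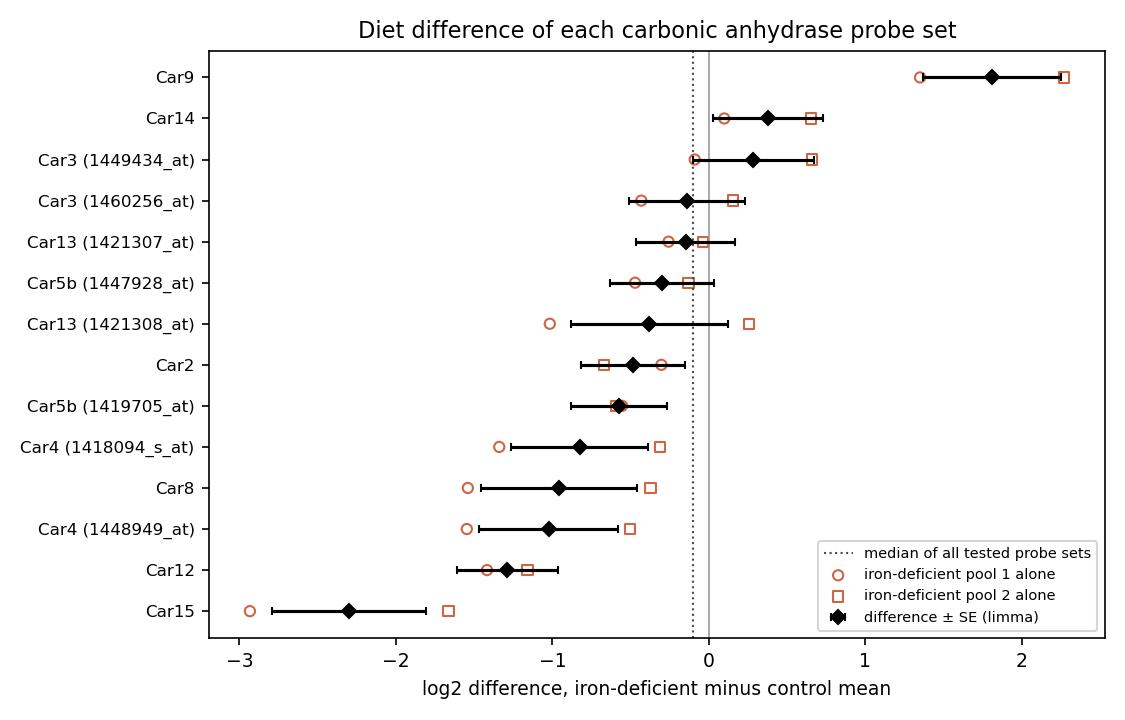
Log2 difference between diets for each tested carbonic anhydrase probe set (black diamonds, with bars of 1 SE from limma) and the difference of each iron-deficient pool from the control mean (open symbols). Car9 stands highest at 1.81 and Car15 lowest at -2.30, and the dotted line marks the median of all tested probe sets at -0.10.

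The cytosolic enzymes Car2, Car3 and Car13 differed less. Car2 is a fast and widespread form that serves most acid-handling tubule cells, intercalated cells of the collecting duct above all. It read 820.3 and 960.6 in controls against 719.4 and 558.6 under iron deficiency. Both iron-deficient signals were below both controls, and here pool 2 was the lower of the pair, unlike in Car4, Car8, Car12 and Car15. The log2 difference was -0.49 ± 0.33 (SE), or 71.4% of the control level, with -0.30 in pool 1 and -0.67 in pool 2.

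Car3, a slow enzyme abundant in skeletal muscle, fat and liver, is represented by 4 probe sets. The brightest read 566.1 and 485.3 in controls against 492.3 and 828.4 under iron deficiency. Only iron-deficient pool 2 was above the control range, while pool 1 lay within it. On the log2 scale the difference was 0.28 ± 0.39 (SE), with -0.09 in pool 1 and 0.66 in pool 2. A dimmer tested probe set gave 53.8 and 42.4 against 35.4 and 53.2 and a difference of the other sign, -0.14 ± 0.37 (SE), so the probe sets disagree. Of the 2 probe sets too dim for the test, one read 2.6 and 4 against 10.7 and 13.4, of which the 13.4 alone exceeded background. The remaining one read 8.8 and 0.7 against 12.2 and 9.3, of which the 8.8 alone exceeded the background of its own array. Neither gives a fold.

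Marker lists of tissues that carry Car3 are given beside it. The summed signal of 11 skeletal muscle genes was 684.3 and 611.4 in controls, against 554.5 (pool 1) and 3075.9 (pool 2) under iron deficiency. Of 9 tested muscle genes, 2 had both iron-deficient signals above the controls (13.1% over all genes) and 7 overlapped. The median difference of these 9 was -0.01 in pool 1 and 2.69 in pool 2. The 2 higher genes were Myod1 and Myog, which encode muscle-determining transcription factors, and Myod1 read 12.4 and 10.3 in controls against 36.8 and 33.9. Their control signals were under the limit of 17.3 for testing, so they were tested only through the group where they are high. The summed signal of 9 hepatocyte genes was 1594.8 and 1452.7 in controls, against 314.3 (pool 1) and 3124.5 (pool 2) under iron deficiency. The summed signal of 4 adipocyte genes stayed between 24.3 and 38.9, and of these Retn alone was bright enough to be tested. No gene of these lists was listed at 0 in any pool. The brightest Car3 probe set had its highest signal in the pool with the highest muscle and hepatocyte sums. The dimmer tested one was highest in control pool 1, at 53.8 against 53.2 in iron-deficient pool 2. The part of those cells in the Car3 values was not tested.

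Car13, the remaining cytosolic form, had a main probe set at 71 and 70.3 in controls against 59.1 and 68.8 under iron deficiency. The groups were separated by a narrow margin, with a log2 difference of -0.15 ± 0.32 (SE) that turned to 0.05 when each array was centred on its median. Its second probe set overlapped between diets, at 25.8 and 32.9 against 14.4 and 34.8 (-0.38 ± 0.50, SE). Another, too dim for the test, was above background in the control pools alone, at 16 and 18.9 against 4.7 and 10.9, and was at least 1.26-fold lower in the iron-deficient pools. Car13, Car1, Car3 and Car2 follow each other as protein-coding neighbours in the GRCm38.p6 assembly. Within this cluster, the main probe sets differed by -0.15 for Car13, 0.28 for Car3 and -0.49 for Car2, and Car1 was too dim to be tested. The values for Car13 and Car3 are within their standard errors, and differences between the neighbours were not tested.

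Car5b, the mitochondrial form, supplies bicarbonate to carboxylation reactions inside the organelle. Its brighter probe set read 56 and 58.6 in controls against 39 and 37.9 under iron deficiency. The iron-deficient pools nearly coincided, 1.03-fold apart, below both controls. This gave a log2 difference of -0.58 ± 0.31 (SE), and -0.30 ± 0.33 (SE) at the dimmer probe set, whose pools were 36.4 and 31.2 against 24.3 and 30.8. Both Car5b probe sets were lower in both iron-deficient pools, at the dimmer one by a margin of 30.8 against 31.2.

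Car8, a carbonic anhydrase-related protein without enzyme activity that binds the inositol trisphosphate receptor, had 1 tested probe set. It read 215.3 and 147.2 in controls against 61.2 and 137.4 under iron deficiency. The second control pool and the second iron-deficient pool lay close together, so the separation of the diets was narrow. The log2 difference was -0.96 ± 0.50 (SE), with -1.54 in iron-deficient pool 1 and -0.37 in pool 2. The other Car8 probe sets were too dim to be tested, with signals from 10.5 to 20.6.

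The iron-deficient pools differed from each other more than the control pools did in 13 of 14 tested member probe sets, against 77% of all tested probe sets. In 12 of these 14, iron-deficient pool 1 was below pool 2. Car2 and the brighter Car5b probe set were the exceptions. The share over all tested probe sets was not counted, but their median log2 difference was also lower in pool 1 (-0.18) than in pool 2 (-0.03). The median log2 difference of the 10 members, with 1 probe set each, was -0.43 in iron-deficient pool 1 and -0.44 in pool 2.

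**Figure D3:**
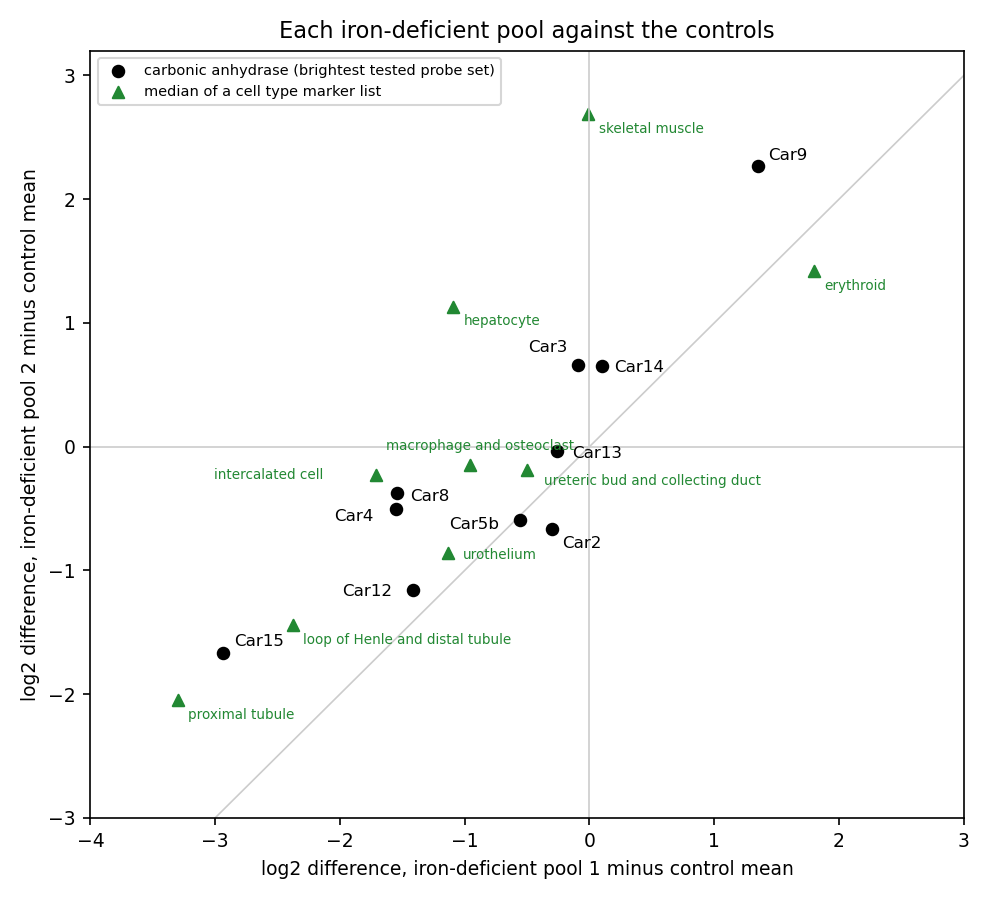
Log2 difference of iron-deficient pool 1 (horizontal axis) and pool 2 (vertical axis) from the control mean, for the brightest tested probe set of each carbonic anhydrase (black points) and for the medians of cell type marker lists with at least 5 tested genes (green triangles). Car15 and Car12 lie at the lower left, as do the loop of Henle, proximal tubule and urothelium lists, and Car9 lies at the upper right.

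Marker lists of the nephron and collecting duct, some of whose cells carry carbonic anhydrases, are given beside the members. Over all genes 26.0% were lower and 13.1% higher in both iron-deficient pools. The list counts here and in the next paragraphs are to be read against these shares. Because the lists were chosen with earlier results of these data known, the counts are a description and not a test. All 10 proximal tubule genes were lower in both iron-deficient pools, with a median log2 difference of -2.78 and a summed signal of 6068.8 and 5980.5 in controls against 1452 and 2307 under iron deficiency. In this list Slc27a2, a fatty acid transport protein, read 298.8 and 257.4 against 26.9 and 65.6 (-2.72 ± 0.50, SE). Slc17a1, a phosphate transporter, read 215.4 and 199.5 against 8.5 and 14.3, of which the 14.3 alone exceeded background. Miox read 61.1 and 74.8 against 7.2 and 12.4, both below background, as was the Fbp1 signal of 9.5 in iron-deficient pool 1. Slc17a1 and Miox were tested only through the control group, where they are high. The sizes for Slc17a1, Miox and Fbp1 are therefore uncertain. The medians of all lists in this paragraph were negative, as were the differences of Car4 and Car15, while that of Car14 was positive. Of 8 tested intercalated cell genes, 5 were lower in both pools, 3 overlapped and none was higher, with a median of -1.21 and sums of 724 and 665.6 against 200 and 501.9. These included Foxi1, the transcription factor that specifies intercalated cells, at 122.5 and 128 in controls against 17.8 and 57.5 under iron deficiency (-1.97 ± 0.60, SE). The median of the intercalated list was -1.71 in iron-deficient pool 1 and -0.23 in pool 2, whereas Car2 was lower in pool 2 than in pool 1. The loop of Henle and distal tubule list had 4 of 5 genes lower in both pools (median -1.91), the urothelium list 4 of 5 (median -1.03) and the ureteric bud and collecting duct list 5 of 11 (median -0.22). The other 6 genes of the collecting duct list overlapped, and its summed signal, 7792.6 and 8815.6 in controls, was 6871.5 in iron-deficient pool 1 and 9122.7 in pool 2. No gene of these lists passed limma's adjusted threshold, no gene of them was listed at 0, and the part of cell composition in the carbonic anhydrase values was not tested.

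Genes of red cells, which carry Car1 and Car2, had differences of the other sign. Of 9 tested erythroid genes, 6 had both iron-deficient signals above the controls and Alas2 had both below, with a median of 1.49 and sums of 3025 and 3356.7 in controls against 9616.7 and 6787.5 under iron deficiency. Hemgn, a red cell nuclear protein, read 17.6 and 16.5 against 107.1 and 86, with a control mean likewise under that limit. Car1, the main red cell form, was too dim to be tested, at 9.8 and 6.1 in controls against 17.8 and 4.8 under iron deficiency, of which the 9.8 and the 17.8 were above background. Macrophage and osteoclast genes, another Car2-bearing group, had 2 of 7 lower in both pools (26.0% over all genes), 5 overlapping and a median of -0.58, which is -0.15 without iron-deficient pool 1. The part of red cells or macrophages in the Car2 value was not tested. The neuron and glia list had 2 tested genes, of which Stmn2 was higher in both pools.

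The other 6 genes of the family were mostly near background. Car1, Car5a, Car6, Car7 and Car10 had no probe set bright enough to be tested, and none of their probe sets was above background in all 4 pools. Car11, another acatalytic family member, read 103.4 and 80.3 in controls against 82 and 146.6 under iron deficiency, which overlap (log2 difference 0.27 ± 0.41, SE, limma adjusted p = 0.878).

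Proteins that work beside carbonic anhydrases were taken as lists. Among bicarbonate transporters of the Slc4 and Slc26 families, both iron-deficient signals were above the controls in 1 of 12 tested genes and below them in 6 (13.1% and 26.0% over all genes), with a median of -0.37. Slc4a1, the anion exchanger of red cells and of acid-secreting intercalated cells, was the higher one, at 240.6 and 285.2 against 910.3 and 553.7 (1.44 ± 0.38, SE). Slc4a9, an anion exchanger of intercalated cells, was lower, at 55.9 and 65.2 against 11.2 and 20 (-2.01 ± 0.40, SE), of which the 11.2 was below background, so the size is uncertain. Slc26a4, the chloride and bicarbonate exchanger pendrin, read 38.3 and 31.4 against 14.9 and 13.3 (-1.30 ± 0.32, SE), the last signal being at background. The iron-deficient means of Slc4a9 and Slc26a4 were under the limit of 17.3 for testing. Both were thus tested only through the control group, where they are high. Slc4a4, the sodium bicarbonate cotransporter that returns bicarbonate to blood from the proximal tubule, read 403.9 and 406.3 against 312.5 and 290 (-0.43 ± 0.31, SE). The control pools of Slc4a4 nearly coincided, and both iron-deficient pools were below them.

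Subunits of the vacuolar proton pump, which acidifies urine and organelles, had 1 of 18 genes higher and 5 lower in both pools, the lower share being near the 26.0% over all genes, with a median of -0.24 (-0.14 over all genes). The median was 0.03 without iron-deficient pool 1. Atp6v0d2, a subunit of specialised acid-secreting cells, had the smallest p of this list, at 58.6 and 68 against 17.7 and 18.5 (-1.80 ± 0.32, SE). Among exporters of protons and lactate, 2 of 10 genes were higher and 5 lower (13.1% and 26.0% over all genes), with a median of -0.45, which became 0.12 when the dimmest 60% of probe sets were left out. Slc16a3, the lactate exporter of glycolytic cells, read 291.9 and 328.2 against 884 and 2055.2 (2.12 ± 0.48, SE). Slc16a1, the more general lactate carrier, read 979.1 and 998.7 against 2738.8 and 1148.5 (0.84 ± 0.49, SE), and Slc16a7 read 159.6 and 147.6 against 64.3 and 114.8 (-0.84 ± 0.40, SE). Slc16a1 differed by 0.22 in iron-deficient pool 2, and differences between the carriers were not tested.

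**Figure D4:**
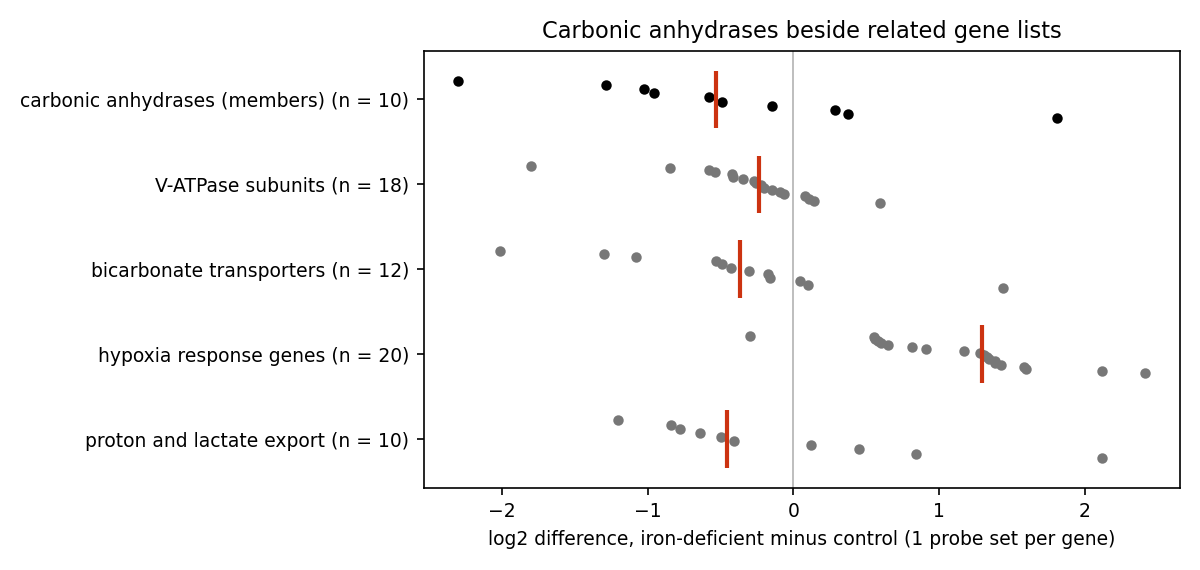
Log2 difference between diets of each tested gene, with 1 probe set per gene, for the carbonic anhydrases and 4 lists of related genes, and the median of each list as a red line. The carbonic anhydrases spread from -2.30 to 1.81 around a median of -0.53, and the hypoxia response list has a median of 1.29.

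Adm, which encodes the vasodilator adrenomedullin, read 411 and 552.2 in controls against 3433.5 and 1887.8 (2.42 ± 0.42, SE), and the glycolytic enzyme gene Hk2 read 565.7 and 642.9 against 1860.8 and 1788.2 (1.60 ± 0.31, SE). These are 2 genes of the hypoxia response list. This list, without carbonic anhydrases, had 18 of 20 genes higher in both iron-deficient pools, none lower, and a median of 1.29 (1.09 in iron-deficient pool 1 and 1.25 in pool 2). Car9 had a value of the same sign as this list, and Car12 had the opposite sign in both pools. In none of these lists of related genes or markers did limma call a gene with adjustment, and the count was 0. With a p under 0.05 before adjustment, the hypoxia list had 13 higher genes and the bicarbonate list 1 higher and 2 lower ones. The pump list had 1 lower gene at that level, the exporter list 1 in each direction, the proximal tubule list 9 lower ones and the erythroid list 6 higher and 1 lower. Lower genes also numbered 3 in the intercalated cell list, 4 in the loop of Henle list, 3 in the urothelium list and 2 in the collecting duct list. The skeletal muscle list had 2 higher ones. Of the genes counted, the lower exporter gene Atp12a had an iron-deficient mean of 17.05, under the limit of 17.3 for testing. The erythroid gene Ermap had a control mean of 17.15, also under it. Both were tested only through the group where they are high, as were Slc4a9, Slc26a4, Hemgn, Slc17a1, Miox, Myod1 and Myog. The lists share Atp6v0d2, Atp6v1b1 and Slc4a9 (intercalated cells), Slc4a1 (red cells) and Slc16a3 (hypoxia). Over all genes, 1.26% were higher and 3.30% lower with a limma p under 0.05 before adjustment. The lists were chosen with earlier results of these data known, so nothing is read from the difference between their counts and these shares.

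Genes with the pattern most like a member were found by the distance between log2 signals, each centred on its own mean, over the 4 arrays and among 23528 probe sets. Nearest to Car9 were A2m, which encodes a protease inhibitor of plasma (distance 0.23), the maternally expressed RNA Meg3 (0.25) and P4ha2, a collagen prolyl hydroxylase (0.42). P4ha2 read 136.4 and 113.6 in controls against 232.1 and 494.8 under iron deficiency. The A2m and Meg3 probe sets were dim in the control pools, at 14.1 and 9.6 for A2m and 12.6 and 8.8 for Meg3, and Meg3 has 7 tested probe sets. Nearest to Car15 were Sgk2, a serum- and glucocorticoid-regulated kinase (0.16), Gm19950 (0.17) and Cyp4a31, a cytochrome P450 (0.19). Sgk2 read 220.7 and 236.1 in controls against 26.9 and 75 under iron deficiency, close to the Car15 signals in each pool relative to its own mean. With 4 arrays such a ranking describes these pools only.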

How the data were processed

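Total RNA from 4 pools was labelled with biotin and hybridised to Affymetrix arrays (protocols in the labels). The authors deposited 1 intensity per probe set and array, on a linear scale. RMA is named in the submitters' processing notes, but these intensities are not logarithms and differ in distribution between arrays, so the step that made them is unknown. Groups and pool numbers come from the labels.

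Zeros were set to 0.1 before log2. The 64 control probe sets and the dimmest 40% of the other 45037 by mean log2 signal were left out, with a limit of 17.3. Differences were fitted with limma 3.58.1 in R 4.3.3 (lmFit and eBayes, two-sided, diet as the only term) over 27022 probe sets with Benjamini-Hochberg adjustment, and the fit was tested on simulated data. Gene lists use the brightest tested probe set of each gene. "At least" folds compare the bright group with the higher of background and the dim signal. Genes were named from the platform annotation (34945 probe sets with 1 symbol, 932 with several, 9160 with none), and promoters from RefSeq. The text names all members, the other family genes, up to 4 genes of each list by smallest p, transporters that act with carbonic anhydrases whatever their values (Slc4a1, Slc4a4, Slc16a1 and Slc16a3; 1 other item of this rule is not reported here), and the 3 genes nearest in pattern to the extreme members. Alas2 was named after its values were seen. The members and lists were chosen with earlier results of these data known.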

Additional observations from a re-analysis of the deposited data

How the results depend on the processing

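The count of probe sets called by limma at an adjusted p of 0.05 was 0 with all arrays, and also with no filter on dim probe sets, the dimmest 60% left out, quantile normalization, median centring, the offset, an intensity trend, robust hyperparameters, array weights and an adjusted p of 0.10. It was 13 with 1 probe set per gene and 479 with the pool number as a replicate block, a fit with 1 residual degree of freedom for which limma set an unlimited prior. Leaving out 1 pool gave from 0 to 75 calls, with 75 without control pool 1 and 31 without control pool 2, in fits that assume the lone pool varies like the other diet's pair. The deviations of same-numbered pools correlated at 0.357 across tested probe sets. The labels do not say whether a number marks a shared litter or day, so it is not known if these pools share more than a number. The 14 tested member probe sets were recomputed under 13 alternatives, which gave 176 values because dim ones drop out when 60% are left out. Of these, 165 kept their sign and moved by less than the spread between pools. Most could not do otherwise, so the count is no test of stability. The filter, trend, hyperparameter, weight and block settings left each difference as it was. Leaving out 1 pool cannot move a difference by more than this spread. Signs held in 10 probe sets and turned in 4: the brightest Car3 probe set (-0.09 without iron-deficient pool 2), the dimmer Car3 one (0.16 without iron-deficient pool 1), and both tested Car13 ones (0.05 after median centring and 0.26 without iron-deficient pool 1). Over these alternatives Car9 ranged from 1.20 to 2.27, Car12 from -1.42 to -1.09, Car15 from -2.93 to -1.66 and Car4 from -1.55 to -0.50.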
